A study of Rattus norvegicus with 24 samples.

Results

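Collagens are secreted or membrane-bound proteins whose α chains wind into rope-like helices, and they carry much of the strength of the lung wall. Fibrillar collagens form the fibres of the interstitium, type IV collagen forms the sheet of basement membranes, and fibril-associated collagens with interrupted helices (FACITs) sit on the surface of fibres. The other types include the beaded filaments of type VI, the anchoring fibrils of type VII, the short-chain networks, the multiplexins and the transmembrane collagens. All genes whose symbol has the form Col, a number, a and a number were taken, which gave 44 of the 30043 genes in the deposited table. They comprise 11 fibrillar genes, 6 type IV genes (called basement membrane here), 9 FACIT genes and 18 others.

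RNA was sequenced from a piece of the lung of 24 male Fischer 344 rats (F344/DuCrl), bought at 3 months of age and exposed in whole-body chambers over 29 weeks, with 6 animals in each of 4 groups. The combined group breathed cigarette smoke at 80 mg/m3 for 3 hours on 2 days a week, after 45 mg/m3 in week 1, and crystalline silica (Min-U-Sil5, a respirable quartz dust) at 15 mg/m3 for 6 hours a day on 5 days of week 3. The silica group had the same 5 days of silica and otherwise air, the smoke group had the same smoke after 40 mg/m3 in week 1 and air in week 3, and the air group had air throughout. The series title names the question, whether smoke worsens the lung toxicity of silica. Levels are in CPM, the usual depth-scaled unit that divides a gene's count by its library's total, and they are compared between groups for 1 gene, not between genes, because gene lengths were not used. A lower level in a piece of whole lung can mean fewer cells of a type or less RNA per cell, and these cannot be told apart here.

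Several libraries stood apart before any comparison. Total counts were 21629 in smoke 2 and 280484 in silica 4, and 1084815 to 4687805 in the others. Smoke 2 held 18 collagen counts, and 56.0% of its total came from haemoglobin genes, so 3 counts already stand at 139 CPM there. Group ranges below leave it out unless it is named, while the fits over all libraries keep it. Mmp12, a macrophage elastase, was at 3.26 CPM in the library labelled silica 1 and at 57.0 CPM or more in the other silica libraries. It was at 57.9 CPM in the library labelled smoke 1 and at most 11.9 CPM in the other smoke libraries. Each of these libraries thus had the Mmp12 level of the other group. Whether their labels were exchanged was not tested. They keep their labels here, and every silica and smoke value below carries that doubt unless they are left out. Lung identity was clear, with summed alveolar type 2 markers (Sftpc, Sftpb, Sftpa1, Lamp3 and Abca3) at 12506 CPM or more in every library other than smoke 2.

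Air 6 carried far more collagen RNA than any other library. Summed over all 44 genes, collagen transcripts reached 15180 CPM in air 6, against 5318 to 5624 CPM in the other 5 air libraries. Fibrillar genes made up 43.6% of the collagen transcripts in air 6 and 22.0% to 25.9% in the other air libraries, and Col3a1, the chain of the fine type III fibres, stood at 5100 CPM in air 6 and at most 880.0 CPM in the others. Summed smooth muscle and myofibroblast markers (Acta2, Myh11, Cnn1, Des, Actg2 and Tagln) were also highest in air 6, at 1263 CPM against 397 to 567 CPM in the other air libraries, and no marker of this list was at 0 throughout the air group. Summed fibroblast markers were at 1409 CPM in air 6 and 1060 to 1197 CPM in the others. Single markers of that list went both ways. Itga8 was at 636 CPM in air 6 and 401 to 429 CPM in the others, and Pdgfra at 247 CPM and 307 to 360 CPM. Their part in the collagen level was not tested, and comparisons of collagens with air are therefore also given without air 6 where the call or the size depends on it.

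Outside air 6 and smoke 2 the collagen total was lower than in air in both groups that had breathed silica. It ran from 4474 to 4932 CPM in the combined group, with a median of 4872 CPM, and from 4519 to 5196 CPM in the silica group, with a median of 4628 CPM. The smoke group ran from 5021 to 5932 CPM with a median of 5616 CPM, and the air group without air 6 from 5318 to 5624 CPM with a median of 5411 CPM. The combined range lay below the whole smoke range and the whole air range. The silica range lay below the air range and overlapped the smoke range at silica 1 (5196 CPM), and smoke and air overlapped. These sums are a description and carry no test. By class, the combined group had 646 to 788 CPM of FACIT transcripts, against 557 to 642 CPM in air without air 6, while its other collagens summed to 1408 to 1632 CPM, against 1871 to 1930 CPM in air without air 6. The higher FACIT sum rested on Col16a1, at 245 to 401 CPM in combined and 97.1 to 150 CPM in air without air 6. Col12a1 ran from 321 to 409 CPM against 360 to 431 CPM, and Col14a1 from 18.7 to 31.8 CPM against 32.1 to 55.7 CPM. Col9a2 was higher at a low level, at 4.39 to 7.37 CPM against 2.60 to 3.67 CPM.

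**Figure D1:**
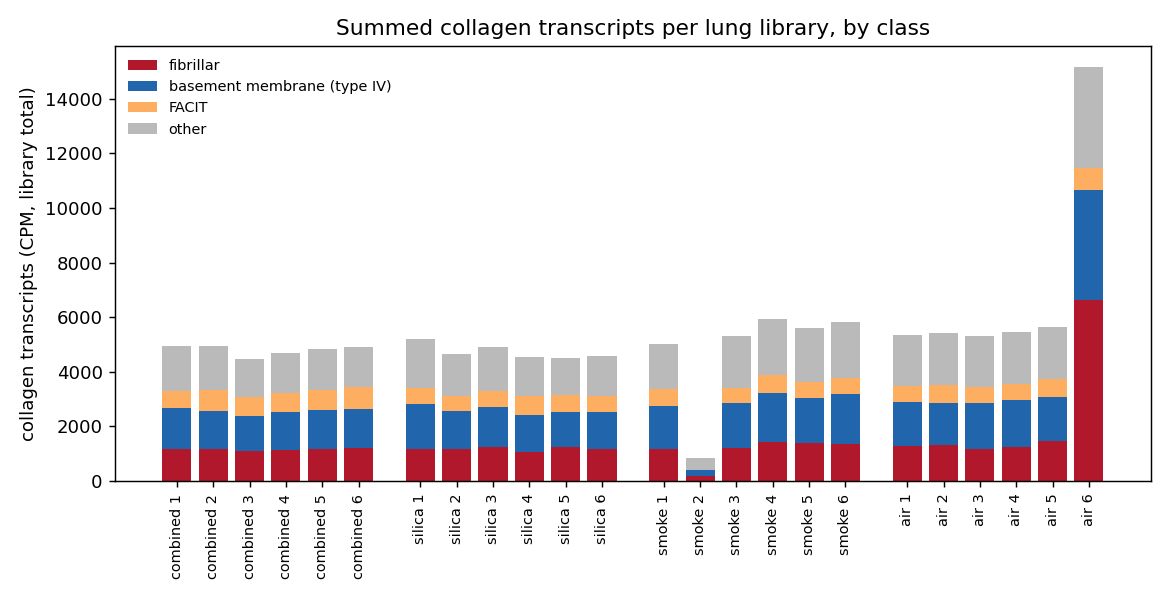
Bars show the summed CPM of the 44 collagen genes in each of the 24 libraries, stacked by class. Air 6 reaches 15180 CPM, the other air libraries 5318 to 5624 CPM and the combined libraries 4474 to 4932 CPM; smoke 2, at 832 CPM, rests on 18 counts.

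A gene was tested where its counts passed edgeR's filter (a minimum count of 10), which kept 13322 genes and 32 of the 44 collagens, and it was called where edgeR's quasi-likelihood test gave an adjusted p under 0.05 over all genes tested. Tested were 7 of the 11 fibrillar genes, all 6 type IV genes, 5 of the 9 FACIT genes and 14 of the 18 others. The 12 genes too low to test were Col1a2, Col2a1, Col11a1, Col24a1, Col9a1, Col9a3, Col19a1, Col22a1, Col10a1, Col25a1, Col26a1 and Col28a1. Col2a1, the main collagen of cartilage, had 0 counts in every library, where 3 counts would be 0.640 CPM in the deepest, and the 9 cartilage markers found were all too low to test. Col1a2, the second chain of type I collagen, had 3 counts in air 6, 1 in silica 6 and 0 elsewhere. The table gives the gene ID of Col1a2 to another row as well, named Col1a2-2, which held 4163 counts and is not a member by symbol; the low value of Col1a2 therefore says nothing about type I collagen, and no ratio of Col1a1 to Col1a2 could be formed. The table also holds rows described as collagen-like that could share reads with members, among them rows like Col3a1 (2087 counts), Col4a3 (317) and Col15a1 (223). Rows described as type XI α2 and type XXIII α1 chains held 29 and 27 counts, beside 239 of Col11a2 and 240 of Col23a1. The values of the genes named here are therefore less certain.

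In lungs of the combined group several fibrillar, type IV and type VI collagen transcripts were lower than in air, and Col16a1 was higher. Of the 32 tested collagens 1 was higher and 16 were lower in combined than in air, where 11.6% of all genes tested were higher and 10.8% lower. The median log2 fold change was -0.45 over the collagens and -0.01 over all genes, and 29 of 32 collagens were negative. Without air 6 the counts were 2 higher and 8 lower, beside 11.3% and 9.58% of all genes, the median was -0.23, and 27 of 32 were negative. Leaving out combined 1 gave 10 lower, and leaving out air 2, air 5, silica 1, combined 3 or combined 5 gave 2 higher. DESeq2 called 1 higher and 9 lower, and limma voom 1 higher and 8 lower. The shares of all genes called by these 2 methods, and in the fits without combined 1 and the others just named, are not given here. Whether these counts differ from the share of all genes was therefore not judged. Leaving out 4 libraries together (air 6 for its collagen level, smoke 2 for its depth, and smoke 1 and silica 1 for Mmp12) gave 2 higher and 12 lower, with 13.1% and 11.9% of all genes. Mmp12 was higher in the other silica libraries than in air, so choosing libraries by it can widen silica differences. Results without these 4 libraries, here and below, are therefore no independent check.

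**Figure D2:**
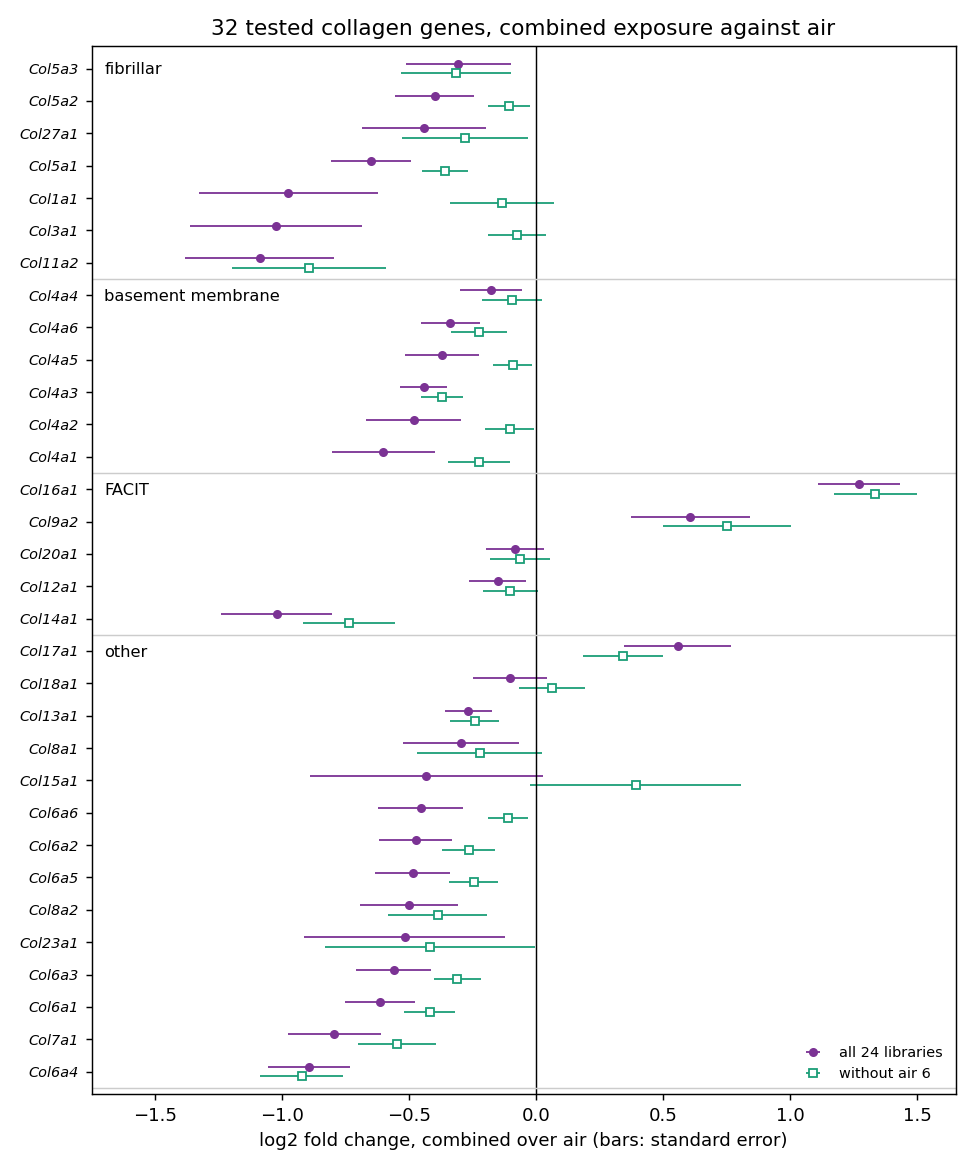
Points give the log2 fold change of combined over air for the 32 tested collagens, by class, with bars of 1 standard error; filled circles use all 24 libraries and open squares leave out air 6. Col16a1 lies far right at 1.27 in the full fit and at 1.33 without air 6, while Col1a1 and Col3a1 move from -0.98 and -1.02 to -0.13 and -0.07 without it.

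Col16a1 encodes the α chain of type XVI collagen, a FACIT that in human skin is found with fibrillin microfibrils and that binds integrins. Its level ran from 245 to 401 CPM in the combined group with a median of 270.0, from 91.8 to 176 CPM in silica with a median of 169, from 101 to 170.2 CPM in smoke with a median of 119, and from 97.1 to 151 CPM in air with a median of 117. Every combined library lay above every library of the other 3 groups, and combined 6 was the highest. Col16a1 was 2.41-fold higher in combined than in air (log2 1.27 ± 0.16, standard error, adjusted p = 3.9e-06), 1.93-fold higher than in silica (log2 0.94 ± 0.16, adjusted p = 0.00431) and 2.33-fold higher than in smoke (log2 1.22 ± 0.17, adjusted p = 9.88e-05). It ranked 32nd of 13322 genes by p in the first of these comparisons and 9th in each of the other 2. These 3 calls held whichever single library was left out, with log2 values of 1.14 to 1.35, 0.82 to 1.00 and 1.09 to 1.35. Without the same 4 libraries they were 1.34 ± 0.13, 0.82 ± 0.14 and 1.25 ± 0.14, all called.

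Neither exposure alone gave a call for Col16a1 in the fit of all libraries. The log2 difference was 0.33 ± 0.17 for silica against air (adjusted p = 0.301) and 0.05 ± 0.17 for smoke against air (adjusted p = 0.991). Within the silica group silica 1 was lowest at 91.8 CPM, and without the 4 libraries named above, silica 1 among them, the silica difference was 0.52 ± 0.15 and was called (adjusted p = 0.0166). The choice of those libraries by Mmp12 can itself widen a silica difference. Whether the combined effect exceeded the sum of the separate log2 effects was tested as an interaction, which was 0.89 ± 0.24 for Col16a1 (adjusted p = 0.339), so it did not pass. With edgeR that test called 0 of 32 collagens and 0% of all genes, 1 collagen had an unadjusted p under 0.05, and DESeq2, limma voom and limma voom with quality weights also called 0 collagens. Without the same 4 libraries 0.0814% of all genes were higher and 0.0592% lower in this test, with 0 collagens among them and 3 at an unadjusted p under 0.05.

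A second FACIT, Col14a1, moved the other way. Type XIV collagen binds between fibrils and limits their width. Col14a1 ran from 18.7 to 31.8 CPM in the combined group with a median of 26.6, against 32.1 to 100.5 CPM in air with a median of 47.4, so the groups did not overlap. The silica group had 20.9 to 42.4 CPM and the smoke group 30.3 to 64.6 CPM. It was lower in combined than in air by edgeR (log2 -1.02 ± 0.22, adjusted p = 0.00108; -0.74 ± 0.18 and 0.00352 without air 6), and this call held whichever single library was left out. Col9a2, a chain of the cartilage FACIT type IX, had 4.39 to 7.37 CPM in combined and 2.60 to 4.69 CPM in air (log2 0.61 ± 0.23, adjusted p = 0.0929), and it was called without air 6 (0.75 ± 0.25, adjusted p = 0.0457). Col12a1, of the fibril-associated type XII, had 321 to 409 CPM in combined, median 360.2, and 360.2 to 498 CPM in air, median 411, and was not called (log2 -0.15 ± 0.11, adjusted p = 0.358), and neither was Col20a1 (-0.08 ± 0.11, adjusted p = 0.651).

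All 6 type VI genes were lower in combined than in air over all libraries, and 3 of them without air 6. Col6a1, Col6a2 and Col6a3 encode the classical chains of the beaded filaments that link cells to the matrix, and Col6a4, Col6a5 and Col6a6 encode chains that can take the place of α3. In the reference gene table Col6a1 lies next to Col6a2 on chromosome 20, and Col6a4, Col6a5 and Col6a6 are neighbours on chromosome 8. The bases before the RefSeq start of Col6a1 and of Col6a4, the pair with the smallest p in this family, are given next.

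These windows were searched on both strands for the TATA box, the GC box, the CCAAT box and the AP-1 site, and capitals mark the matches on either strand. Both are from RefSeq on build GRCr8, 250 bases ending just before the start, written 5′ to 3′ along the gene. Col6a1 is at chr20:11905440-11905689 on the plus strand and has 1 AP-1 match; Col6a4 is at chr8:115611842-115612091 on the minus strand and has 1 CCAAT match.
Col6a1: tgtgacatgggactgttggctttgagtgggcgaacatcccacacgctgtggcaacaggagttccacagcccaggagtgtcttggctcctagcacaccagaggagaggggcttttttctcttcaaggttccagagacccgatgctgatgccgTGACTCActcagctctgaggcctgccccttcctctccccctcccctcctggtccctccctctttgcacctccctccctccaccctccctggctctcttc
Col6a4: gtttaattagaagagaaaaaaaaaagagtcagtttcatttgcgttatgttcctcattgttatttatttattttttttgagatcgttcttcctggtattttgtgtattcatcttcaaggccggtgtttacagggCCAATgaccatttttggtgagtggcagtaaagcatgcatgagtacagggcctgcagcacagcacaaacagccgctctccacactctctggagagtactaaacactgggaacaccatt

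Among 27457 RefSeq windows of 250 bases, 13.1% hold the TATA box as TATAAA. A GC box, searched as GGGCGG, is in 32.4% of them, and a CCAAT box, searched as CCAAT, is in 34.3%. An AP-1 site, searched as TGANTCA, is in 6.36%. Of the 35 collagens with a window, 4 hold a TATA box, 19 a GC box, 11 a CCAAT box and 1 an AP-1 site. A match is a run of letters and does not show binding.

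Col6a4 ran from 21.3 to 37.7 CPM in the combined group with a median of 29.3, from 17.8 to 66.7 CPM in silica with a median of 34.6, from 40.5 to 55.0 CPM in smoke with a median of 45.8, and from 49.1 to 71.1 CPM in air with a median of 52.9. Combined lay below all of smoke and air, while silica spread across both. The difference of combined from air was -0.90 ± 0.16 on the log2 scale (adjusted p = 0.000212), and it was -0.92 ± 0.16 without air 6 (adjusted p = 0.000165). Col6a1 ran from 187 to 243 CPM in combined with a median of 203, from 168 to 256 CPM in silica with a median of 211, from 229 to 296 CPM in smoke with a median of 286, and from 275 to 546 CPM in air with a median of 290.2. Both silica-exposed groups lay entirely below air. Its log2 difference of combined from air was -0.62 ± 0.14 (adjusted p = 0.00186; -0.42 ± 0.10 and 0.00317 without air 6). Col6a3 ran from 450.0 to 495 CPM in combined with a median of 488, from 427 to 526 CPM in silica with a median of 498, from 527 to 678 CPM in smoke with a median of 623, and from 555 to 1333 CPM in air with a median of 619. Here too combined and silica each lay below every air library, and the log2 difference of combined from air was -0.56 ± 0.15 (adjusted p = 0.00642; -0.31 ± 0.09 and 0.0145 without air 6). The calls of Col6a1, Col6a3 and Col6a4 against air held whichever single library was left out, and limma voom did not call Col6a3.

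The other 3 type VI genes depended more on single libraries. Col6a2 ran from 196 to 246 CPM in combined with a median of 233, against 272 to 551 CPM in air with a median of 284, without overlap (log2 -0.47 ± 0.14, adjusted p = 0.0173), and without air 6 the difference was -0.27 (adjusted p = 0.0656). Col6a5 had 226 to 299 CPM in combined, median 255, against 273 to 665 CPM in air, median 324, with overlapping ranges (log2 -0.49 ± 0.15, adjusted p = 0.0162), and without air 6 it was -0.25 (adjusted p = 0.0652). Col6a6 had 83.5 to 95 CPM in combined, median 88.1, against 88.5 to 252 CPM in air, median 102 (log2 -0.45 ± 0.17, adjusted p = 0.0481), was -0.11 without air 6 (adjusted p = 0.351), and kept its call in 4 of 24 fits, those without air 1, air 3, air 4 or air 5. The ratio of Col6a1 to Col6a2 counts in a library ran from 0.868 to 0.998 in combined, with a median of 0.912, from 0.901 to 1.13 in silica, from 0.910 to 1.04 in smoke and from 0.972 to 1.06 in air, with a median of 1.02. The combined range reached lower than that of air and overlapped it.

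Type IV collagen forms the net of the basement membrane, with α1 and α2 in most tissues and α3, α4 and α5 in the mature alveolar and glomerular membranes. Of 6 type IV genes 0 were higher and 3 lower in combined than in air: Col4a3, Col4a1 and Col4a6. Each type IV pair lies head to head in the genome, with RefSeq starts 76 bases apart for Col4a1 and Col4a2, 412 for Col4a3 and Col4a4 and 1414 for Col4a5 and Col4a6. The whole stretch between the Col4a1 and Col4a2 starts and the 250 bases before Col4a3 are shown because these genes were compared as pairs; capitals mark a GC box, 1 in each, read on the other strand in the first. The first is at chr16:84885521-84885596 and the second at chr9:91323740-91323989, both on the plus strand of GRCr8 and from RefSeq.
Col4a1/Col4a2: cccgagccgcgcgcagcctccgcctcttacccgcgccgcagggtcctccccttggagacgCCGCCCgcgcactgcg
Col4a3: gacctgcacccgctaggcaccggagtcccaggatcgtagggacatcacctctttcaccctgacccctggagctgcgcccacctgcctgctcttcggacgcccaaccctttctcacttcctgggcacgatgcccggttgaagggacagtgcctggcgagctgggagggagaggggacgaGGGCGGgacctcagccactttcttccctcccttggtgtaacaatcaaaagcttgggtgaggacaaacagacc

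Col4a3 ran from 184 to 203 CPM in the combined group with a median of 193, from 203 to 263 CPM in silica with a median of 219, from 226 to 282 CPM in smoke with a median of 259, and from 223 to 344 CPM in air with a median of 264. The combined libraries were below those of all 3 other groups. The edgeR log2 difference of combined from air was -0.44 ± 0.09 (adjusted p = 0.000834; -0.37 ± 0.08 and 0.00178 without air 6), and the call held whichever single library was left out. Col4a1 had 496 to 611 CPM in combined, median 576, against 641 to 1941 CPM in air, median 689.5, without overlap (log2 -0.60 ± 0.20, adjusted p = 0.0325), and the call was lost without air 6 (-0.23, adjusted p = 0.191) or without combined 1, 2, 3, 5 or 6. Col4a6 had 22.8 to 33.7 CPM in combined, median 28.3, against 30.2 to 48.9 CPM in air, median 34.3 (log2 -0.34 ± 0.12, adjusted p = 0.0374), and lost its call without air 6 (-0.23, adjusted p = 0.144) or without air 5 or combined 1, 2 or 5. Col4a2 had 342 to 418 CPM in combined, median 379, and 396 to 1197 CPM in air, median 423, and was not called (-0.48 ± 0.19, adjusted p = 0.0603). The Col4a1 to Col4a2 ratio ran from 1.36 to 1.70 in combined, 1.57 to 2.00 in silica, 1.42 to 1.69 in smoke and 1.49 to 1.75 in air, and the Col4a3 to Col4a4 ratio had medians of 3.11, 3.60, 3.14 and 3.70 in the same groups. All 4 ranges overlapped for each pair.

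Of 7 tested fibrillar genes 4 were lower in combined than in air, and the calls of 2 of them, Col1a1 and Col3a1, were lost without air 6. Col1a1, the main chain of type I fibres, ran from 62.9 to 115 CPM in combined with a median of 68.8, from 53.5 to 93.0 CPM in silica with a median of 80.7, from 72.6 to 134 CPM in smoke with a median of 100.3, and from 44.4 to 480.0 CPM in air with a median of 108. All 4 groups overlapped. It was lower in combined than in air by edgeR (log2 -0.98 ± 0.35, adjusted p = 0.0453), but -0.13 ± 0.20 without air 6 (adjusted p = 0.698), and it kept its call in 10 of 24 fits that left out 1 library, those without air 1, 2, 3, 4 or 5, silica 1, smoke 1, 2 or 4 or combined 4. Col3a1 ran from 665 to 736 CPM in combined with a median of 689.6, from 624 to 767 CPM in silica with a median of 716, from 649.9 to 811 CPM in smoke with a median of 801, and from 681 to 5100 CPM in air with a median of 750.3. Its log2 difference of combined from air was -1.02 ± 0.34 (adjusted p = 0.029), but -0.07 ± 0.12 without air 6 (adjusted p = 0.701), and the call was also lost without combined 1, 3 or 5.

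Col5a1, whose type V chain starts and sizes type I fibrils, had 84.8 to 112 CPM in combined, median 104, against 128 to 317 CPM in air, median 138, without overlap. It was lower in combined with air 6 (log2 -0.65 ± 0.16, adjusted p = 0.00318) and without it (-0.36 ± 0.09, adjusted p = 0.00409). Its partner Col5a2 had 233 to 279 CPM in combined, median 254, and 264 to 669 CPM in air, median 285, and was not called (-0.40 ± 0.15, adjusted p = 0.0606). Col11a2, a type XI chain best known from cartilage and present here at a low level, had 1.46 to 3.69 CPM in combined, median 3.14, against 3.83 to 8.75 CPM in air, median 5.41, without overlap (-1.09 ± 0.29, adjusted p = 0.00777; -0.90 ± 0.30 and 0.0338 without air 6). The calls of Col5a1 and Col11a2 held whichever single library was left out, although DESeq2 did not call Col11a2. Col5a3 (-0.31 ± 0.21) and Col27a1 (-0.44 ± 0.24) were not called.

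Of the remaining collagens, Col7a1 and Col13a1 were lower in combined than in air. Col7a1, which builds the fibrils that anchor epithelium to the matrix below, had 13.9 to 19.4 CPM in combined, median 16.9, against 17.6 to 49.1 CPM in air, median 24.7 (log2 -0.80 ± 0.18, adjusted p = 0.00209; -0.55 ± 0.15 and 0.00968 without air 6). The ranges overlapped at air 5, and the call held whichever single library was left out. Col13a1, a transmembrane collagen of cell contacts, had 93.6 to 109 CPM in combined, median 99.2, against 109 to 138 CPM in air, median 127, without overlap. Its difference was -0.27 ± 0.09 (adjusted p = 0.0381), and the call was lost without air 1, air 2, air 6 (-0.24, adjusted p = 0.0725), smoke 3 or any combined library other than combined 5. Col8a1, Col8a2, Col15a1, Col17a1, Col18a1 and Col23a1 were not called, with log2 differences of -0.52 for Col23a1 to 0.56 for Col17a1. Col17a1, the collagen of hemidesmosomes, had 32 to 66.8 CPM in combined and 11.9 to 38.8 CPM in air (0.56 ± 0.21, adjusted p = 0.0561), and air 6 was its lowest library.

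**Figure D3:**
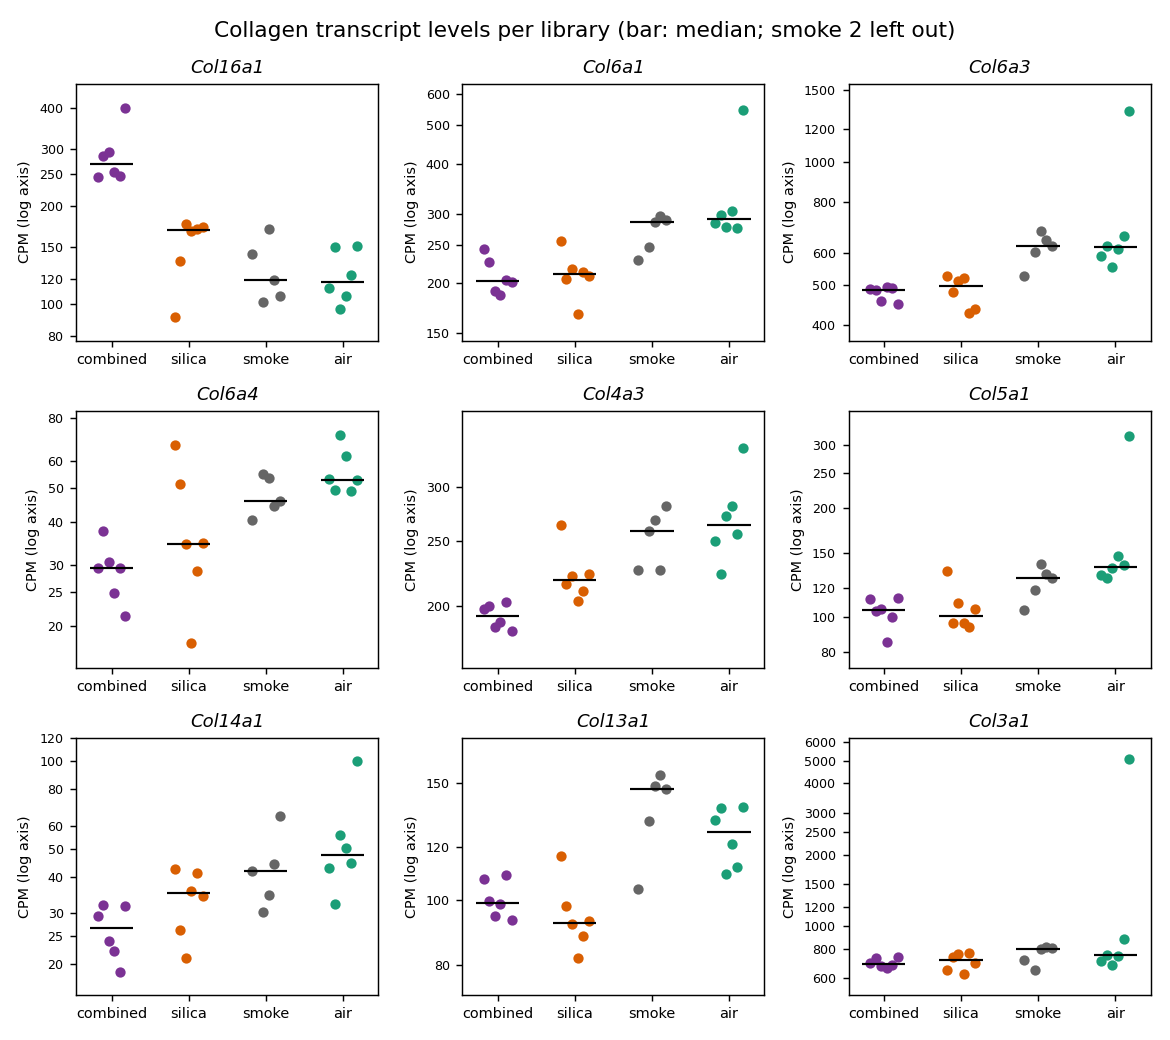
Each point is 1 library and each bar a group median, in CPM on a log axis, for 9 collagens; smoke 2 is left out. All combined points lie above all others for Col16a1, both silica-exposed groups lie below air for Col6a1 and Col6a3, and air 6 alone lifts the air group of Col3a1, to 5100 CPM.

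After silica alone 5 collagens were lower and 0 higher than in air, where 1.01% of all genes tested were lower and 2.15% higher. The 5 were Col6a1 (log2 -0.59 ± 0.14, adjusted p = 0.02), Col5a1 (-0.63 ± 0.16, adjusted p = 0.0292), Col6a3 (-0.56 ± 0.15, adjusted p = 0.0339), Col6a2 (-0.53 ± 0.15, adjusted p = 0.0422) and Col13a1 (-0.34 ± 0.10, adjusted p = 0.044). Col5a1 had 93.6 to 134 CPM in silica, median 101, against 128 to 317 CPM in air, median 138. Col6a2 had 175 to 282 CPM in silica, median 219, against 272 to 551 CPM in air, median 284. Col13a1 had 82.0 to 117 CPM in silica, median 92.6, against 109 to 138 CPM in air, median 127. In these 3 genes silica 1 was the silica library that overlapped air. The collagen median was -0.41 and that of all genes -0.004, with 19 collagens at an unadjusted p under 0.05. Without air 6 the collagen median was -0.18, and Col6a1 (-0.39, adjusted p = 0.0395) and Col5a1 (-0.33, adjusted p = 0.0476) were called, 2 genes in all, beside 0.475% of all genes lower and 1.67% higher.

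The count of collagens lower after silica was unstable. The share of all genes called lower also moved, from 1.01% over all libraries to 0.475% without air 6 and 4.78% without the same 4 libraries. Shares for the other fits are not given here, so their counts show only how stable the calls were. Leaving out silica 1 gave 10 and leaving out air 5 gave 8. Leaving out air 4, silica 4, smoke 3 or any combined library other than combined 4 gave 3, leaving out air 6 gave 2, leaving out silica 3 gave 1. Leaving out silica 2, 5 or 6 gave 0. DESeq2 called 4 lower, limma voom 0, and a fit of the silica and air libraries alone 0. Col6a1 lost its call without silica 2, 5 or 6, Col5a1 without silica 2, 3, 5 or 6, and Col6a3 without air 6 or silica 2, 3, 5 or 6. Col6a2 kept its call in 10 of 24 such fits, those without air 1, 2, 3 or 5, silica 1, smoke 1, 2, 4 or 6 or combined 4, and Col13a1 in 8, those without air 3, air 5, silica 1, smoke 1, 2, 4, 5 or 6. Without the same 4 libraries 9 were lower and Col16a1 was higher, beside 4.78% lower and 6.62% higher of all genes; type VI then gave 4 of 6 lower and type IV 3 of 6. The fibrillar genes Col1a1 and Col3a1 were not called after silica, with log2 -0.88 ± 0.36 and -1.02 ± 0.34 (adjusted p = 0.175 and 0.0929) over all libraries and -0.03 ± 0.21 and -0.07 ± 0.12 (adjusted p = 0.978 and 0.844) without air 6.

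Smoke alone gave no collagen call. edgeR called 0 of 32 collagens higher or lower than in air, where 0.0976% of all genes were higher and 0.0525% lower, and 4 collagens had an unadjusted p under 0.05. DESeq2 and both forms of limma voom also called 0, and so did edgeR without air 6 (0.105% of all genes higher and 0.211% lower) and without the same 4 libraries (0.289% higher and 0.436% lower). The collagen median was -0.23 over all libraries and 0.02 without air 6, and the lowest adjusted p was 0.361, that of Col3a1. The log2 difference of Col3a1 was negative, from -1.15 to -0.04 on leaving out 1 library. Its medians did not show this, at 801 CPM in smoke without smoke 2 and 750.3 CPM in air, where air 6 stood at 5100 CPM. The comparison of combined with smoke asks what silica adds to smoke, and there 1 collagen was higher and 3 were lower, where 7.34% of all genes were higher and 5.57% lower. Col16a1 was the higher one, and Col13a1 (-0.39 ± 0.10, adjusted p = 0.00932), Col6a4 (-0.67 ± 0.17, adjusted p = 0.0111) and Col4a3 (-0.33 ± 0.10, adjusted p = 0.0224) were the lower ones. Col13a1 had 93.6 to 109 CPM in combined and 104 to 154 CPM in smoke, where smoke 1 was the library that overlapped. Col4a3 lost its call without smoke 3, 4 or 6 or combined 3. The count of lower genes was 7 without air 6, 5 without smoke 1 and 13 without the same 4 libraries, beside 12% of all genes lower and 13.2% higher. Without air 6, 7.92% of all genes were lower and 9.19% higher. The shares without smoke 1 are not given here.

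The comparison of combined with silica asks what smoke adds to silica, and Col16a1 was the single collagen called. edgeR called 1 collagen higher and 0 lower, where 0.12% of all genes were higher and 0.128% lower, 3 collagens had an unadjusted p under 0.05, and DESeq2 and limma voom also called 0 lower. The counts were the same without air 6, with 0.422% of all genes higher and 0.429% lower, and without the same 4 libraries, with 0.451% higher and 0.37% lower. The collagen median was -0.01, with 18 of 32 negative. Col4a3, with 184 to 203 CPM in combined and 203 to 263 CPM in silica, did not overlap yet was not called (log2 -0.20 ± 0.09, adjusted p = 0.367). The silica effect can be read on 2 backgrounds that share no library, silica against air and combined against smoke. Of the 32 collagens 27 were negative in both and 3 positive in both, while 68.4% of all genes tested had the same sign in both. The 3 positive ones were Col16a1, Col9a2 and Col17a1. Without air 6, 27 were negative in both and 4 positive in both, where 67.9% of all genes had the same sign. In the pair of smoke against air and combined against silica 15 were negative in both and 5 positive in both, where 55.4% of all genes had the same sign. That count includes air 6 and was not repeated without it. In smoke against air 24 of the 32 collagens were negative over all libraries and 14 without air 6.

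**Figure D4:**
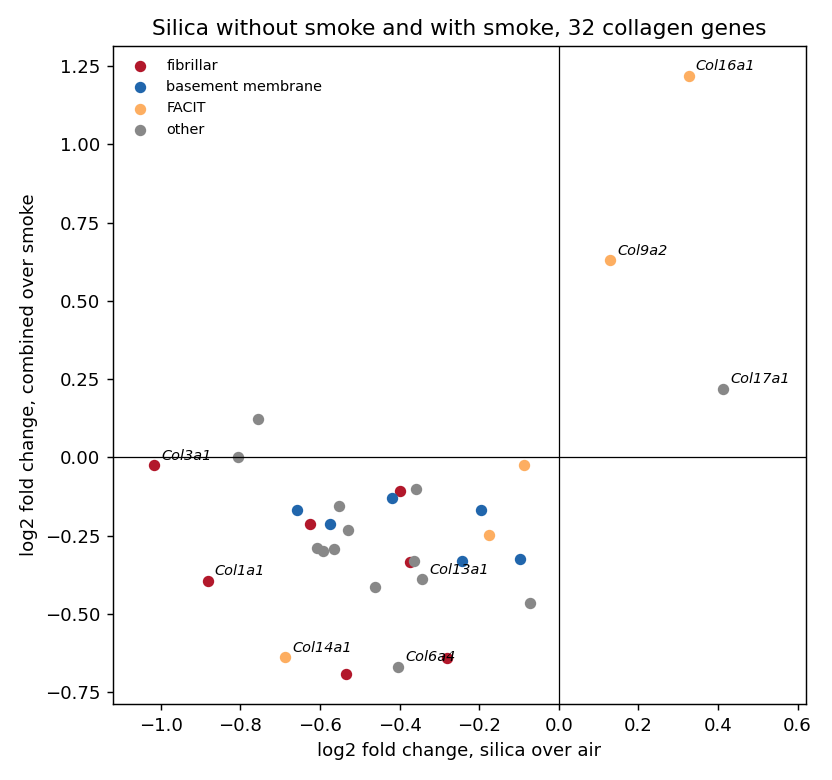
Each point is a tested collagen, with the log2 fold change of silica over air on the x axis and of combined over smoke on the y axis, coloured by class. The lower left quadrant holds 27 of the 32 genes, and Col16a1 stands alone at the top, at 0.33 and 1.22. Values are from the fit of all libraries, air 6 included. Without air 6 the collagen median of silica over air moves from -0.41 to -0.18, and 27 genes are again negative on both axes.

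Genes that make, mature, bind and break down collagen were next compared between combined and air, where 11.6% of all genes were higher and 10.8% lower. Without air 6 these shares were 11.3% and 9.58%. Of 21 tested genes of collagen processing and secretion 2 were higher and 4 lower, with a median log2 of -0.20. Without air 6 the counts were 3 and 2 and the median -0.09. P4hb, the disulfide isomerase subunit of prolyl 4-hydroxylase, had 499 to 629 CPM in combined, median 582, against 388 to 453 CPM in air, median 425 (log2 0.51 ± 0.10, adjusted p = 0.000465; 0.52 and 0.000375 without air 6). Colgalt1, which adds galactose to collagen, was also higher (0.34 ± 0.11, adjusted p = 0.019; 0.38 without air 6), and P4ha2, a catalytic subunit of prolyl 4-hydroxylase, was lower (-0.41 ± 0.12, adjusted p = 0.0137; -0.52 without air 6). Serpinh1, the collagen chaperone of the endoplasmic reticulum, was lower over all libraries (-0.39 ± 0.12, adjusted p = 0.0229) and not called without air 6 (-0.23, adjusted p = 0.0781). Likewise Plod2 and Leprel2 were called lower only with air 6. Against silica edgeR called 0 of the 21, with 4 at an unadjusted p under 0.05. There 0.12% of all genes were higher and 0.128% lower.

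Of 11 tested genes of extracellular maturation and crosslinking 1 was higher and 5 lower in combined than in air, with a median of -0.48. Without air 6 the counts were 0 and 3 and the median was -0.16. Tll1, a tolloid protease that trims procollagen, had 4.95 to 9.22 CPM in combined, median 6.16, against 9.60 to 11 CPM in air, median 10.9, without overlap (log2 -0.71 ± 0.16, adjusted p = 0.00219; -0.76 without air 6). PCOLCE2, which enhances that trimming (-0.59 ± 0.13, adjusted p = 0.00169), and Adamts14, a procollagen N-proteinase (-0.78 ± 0.18, adjusted p = 0.00261), were lower with and without air 6. Adamts2 and Loxl1 were lower and Bmp1 higher over all libraries, and none of these 3 was called without air 6. Lox, the lysyl oxidase that crosslinks fibres, was not called (-0.33 ± 0.19, adjusted p = 0.235; 0.06 without air 6).

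Of 7 tested collagen receptors and uptake genes 3 were lower and 1 higher in combined than in air, and the counts were the same without air 6. Ddr2, a receptor kinase of fibroblasts for fibrillar collagen, had 93.1 to 138 CPM in combined, median 125, against 149.8 to 254 CPM in air, median 182, without overlap (log2 -0.60 ± 0.12, adjusted p = 0.000503; -0.51 without air 6). Mrc2, which takes collagen up for degradation (-0.41 ± 0.10, adjusted p = 0.00279), and Itga1, a collagen-binding integrin chain (-0.36 ± 0.12, adjusted p = 0.0282), were lower, and Ddr1, the epithelial receptor kinase, was higher (0.36 ± 0.11, adjusted p = 0.0212). Of 10 fibril partners 4 were lower and 0 higher: Postn (-0.52), Fmod (-0.59), Prelp (-0.51) and the row LOC102552895 (-0.48), of which LOC102552895 alone was called without air 6, when 1 partner was higher. Thbs2, another partner, had 7.33 to 13.9 CPM in combined and 2.25 to 6.00 CPM in air without air 6, and air 6 stood at 25.0 CPM. Of 6 tested collagen-degrading enzymes 3 were higher and 0 lower, with and without air 6. Ctsk, cathepsin K, had 40.6 to 78.7 CPM in combined, median 58.3, against 8.11 to 31.6 CPM in air, median 19.8, without overlap (log2 1.66 ± 0.25, adjusted p = 2.82e-05; 1.45 without air 6). Mmp14, a membrane-bound collagenase, had 124 to 166 CPM in combined, median 129, against 68.7 to 125 CPM in air, median 79.1 (0.72 ± 0.14, adjusted p = 0.000424; 0.86 without air 6), and Ctsb was higher as well (0.70 ± 0.16, adjusted p = 0.00197; 0.64 without air 6). The same 3 were the higher ones against smoke, where 7.34% of all genes were higher and 5.57% lower. Against air Mmp2 was not called (-0.31 ± 0.17, adjusted p = 0.179, and 0.01 without air 6).

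Some markers of the cells that make or border the matrix were also lower in combined than in air. Among all genes tested 10.8% were lower and 11.6% higher there, and 9.58% were lower and 11.3% higher without air 6. Of 9 tested fibroblast markers 5 were lower and 0 higher, among them Pdgfra (log2 -0.66 ± 0.10), with 2 lower without air 6. The summed level of the 10 found was 778 to 930 CPM in combined, 731 to 1137 CPM in silica, 1031 to 1212 CPM in smoke and 1060 to 1409 CPM in air. Endothelial markers gave 4 of 7 lower and 0 higher with and without air 6, with sums of 2160 to 2480 CPM in combined, 2203 to 3563 CPM in silica, 2996 to 3608 CPM in smoke and 2928 to 3642 CPM in air. Alveolar type 1 markers gave 4 of 6 lower and 0 higher, also without air 6, with sums of 2954 to 3183 CPM in combined, 2952 to 4081 CPM in silica, 3504 to 4138 CPM in smoke and 3853 to 4249 CPM in air. Smooth muscle and myofibroblast markers gave 2 of 6 lower with a median log2 of -0.55, and 1 of 6 with a median of -0.20 without air 6, with sums of 317 to 430 CPM in combined, 321 to 553 CPM in silica, 394 to 599 CPM in smoke and 397 to 1263 CPM in air. No marker of these 4 lists was at 0 throughout a group, and the part of these cells in the collagen levels was not tested. Alveolar type 2 markers gave 2 of 5 higher and 0 lower, with sums of 22737 to 26036 CPM in combined and 12506 to 19864 CPM in air. The silica sums were 12568 CPM in silica 1 and 21532 to 24016 CPM in the other silica libraries, so a high sum was not particular to combined. The smoke sums were 19349 CPM in smoke 1 and 13439 to 15934 CPM in the others. Among macrophage markers Cd68 was higher, 1 of 4 tested. Emr1 ran the other way, at 4.61 to 20.8 CPM in combined and 17.7 to 23.6 CPM in air. Csf1r was at 206 to 251 CPM in combined and 218 to 240 CPM in air. Mrc1 was at 318 to 390 CPM in combined and 198 to 425 CPM in air. Mesothelial markers gave 0 of 5 called over all libraries and 4 lower without air 6.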

How the data were processed

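Lung RNA was sequenced from 24 rats with a stranded total RNA kit after removal of ribosomal RNA, per the labels' protocols. The authors deposited raw counts per gene; per the submitters' processing notes the tools included bcl2fastq 2.19, Trimmomatic 0.35, HISAT2 2.1.0, SAMtools 1.8 and HTSeq 0.11.2. The build, annotation and strand setting were not given in the sources used here. Of 30069 lines 26 repeated ones were removed.

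CPM used each library's total count (21629 to 4687805), and limits from 3 counts cover counting error only. edgeR 4.0.16 in R 4.3.3 (filterByExpr with minimum count 10, TMM scaling, 1 mean per group, all 24 libraries, quasi-likelihood test, Benjamini-Hochberg over 13322 genes) gave 6 comparisons; a standard error is the log2 fold change over the square root of F. The fit was tested on simulated data. DESeq2 1.42.0, limma 3.58.1 (voom, with and without quality weights), RLE scaling, no filter, fits of the compared groups alone and leaving out libraries were alternatives.

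Values by library were given for every collagen called in any comparison, for the 2 of each class with the highest mean CPM, and for Col1a1, Col1a2 and Col3a1. Partner genes were named by smallest p among those called and by highest mean CPM among those not called. The members and lists were chosen with earlier results of these data known. Groups came from the sample labels. Each library is 1 rat, replicate numbers follow accession order and pair nothing, and the closest same-group pair had a chi-square per degree of freedom of 1.73, so none was treated as a repeat. Sequences are from RefSeq on GRCr8.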

Additional observations from a re-analysis of the deposited data

Results flagged for a closer look

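Collagen values were checked for a library lying far from the rest of its group of 6 (Dixon's test at the 95% level). Of 86 groups of values 32 had such a library. Chance gives about 1 in 20 for independent groups, but these groups share libraries, 2 of the values rest on 1 to 3 counts of Col1a2 beside zeros, and those of smoke 2 come with its low depth, so the number is not read against that rate. Air 6 gave 15; it had been singled out beforehand for its high Col1a1, so its values are a description. Its CPM was 100.473 for Col14a1, 479.969 for Col1a1, 0.639958 for Col1a2, 5100.47 for Col3a1, 1940.99 for Col4a1, 1196.72 for Col4a2 and 48.8502 for Col4a6. It was 317.419 for Col5a1, 669.183 for Col5a2, 546.098 for Col6a1, 551.431 for Col6a2, 1332.82 for Col6a3, 665.13 for Col6a5 and 251.504 for Col6a6, and 15179.6 for the collagen total.

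Smoke 2, with 21629 counts in all, gave 14. It was at 0 CPM for Col12a1, Col4a1, Col4a6, Col6a1, Col6a2, Col6a4 and Col7a1. It was at 92.4684 CPM for Col3a1 and Col6a5, 138.703 for Col4a2, 46.2342 for Col4a3 and Col5a2, 184.937 for Col6a3 and 832.216 for the total.

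The remaining values were Col16a1 at 400.503 CPM in combined 6, Col4a3 at 263.391 CPM in silica 1 and Col1a2 at 0.451627 CPM, from 1 count, in silica 6.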

How the results depend on the processing

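Of 27 named calls 13 held whichever single library was left out, and RLE scaling changed none of the 34 named results. The 34 comprise these 27 calls and 7 results that were not called, so at most 27 calls could be lost. Lost were 15 calls with limma voom, 10 in fits of the compared groups alone (33 results given) and 7 with DESeq2 (31 results given). The mean collagen total without Col1a1, Col1a2 and Col3a1 was 4015 CPM in combined and 3948 CPM in silica. No paired analysis was possible because the replicate numbers only name libraries. The causes of the changes below were not tested. The counts below come without the share of all genes called in each fit, so they show only how stable the calls were.

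Silica against air gave 0 lower collagens with limma voom, 0 in a fit of the compared groups alone, 9 without 4 libraries (air 6, smoke 1, smoke 2 and silica 1), and 0 to 10 on leaving out 1 library; 1 was higher without those 4. Combined against air gave 2 higher with no filter, with voom quality weights, without those 4 and without air 6 and smoke 2, and 1 to 2 on leaving out 1 library. It gave 9 lower with DESeq2, 8 with limma voom and 8 to 19 on leaving out 1 library. Combined against smoke gave 2 higher and 11 lower with quality weights, 5 lower with the compared groups alone, 13 without those 4, 10 without air 6 and smoke 2, and 2 to 7 on leaving out 1 library.

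The sign changed for Col1a1 in silica against air, to 0.0031 with quality weights and 0.017 without those 4 libraries, with -1.08 to -0.03 on leaving out 1 library. In smoke against air Col1a1 was 0.29 with quality weights, 0.40 without those 4, 0.28 without air 6 and smoke 2, and -0.77 to 0.27 on leaving out 1 library. Col3a1 was 0.018 without those 4 and -1.15 to -0.04 on leaving out 1 library. Col16a1 ran from -0.078 (without smoke 4) to 0.13 on leaving out 1 library, with -0.01 without air 3. The removal of air 6 and smoke 2 together, and the sum of both Col1a2 rows, were chosen after seeing the data; the sum gave 17 lower collagens in combined against air. Without smoke 2 and silica 4, the libraries with the lowest depth, 31 of 34 named results stayed as called or not called and 3 lost their call.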

Other observations

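The row Col1a2-2, which carries the gene ID of Col1a2, ran from 28.4 to 72.4 CPM in combined, with a median of 43.5, and from 25.5 to 301 CPM in air, with a median of 90.6. By edgeR it was lower in combined than in air (log2 -1.20 ± 0.35, adjusted p = 0.0121), and it was not called without air 6 (-0.54 ± 0.25, adjusted p = 0.121).

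A row described as collagen alpha-1(III) chain-like, LOC102553290, stood at 424 CPM in smoke 1 and at most 67.8 CPM in every other library, while Col3a1 itself lay within the range of its group in smoke 1.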
